A study of Mus musculus with 12 samples.

Results

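Genes of the major histocompatibility complex (MHC) and of antigen presentation were examined in mouse embryonic stem cells. A gene was included if its symbol starts with H2- (45 genes) or is B2m, Tap1, Tap2, Tapbp, Psmb8, Psmb9, Psmb10, Nlrc5, Ciita, Cd74 or Ubd (11 genes), which gave 56 of the 43346 genes in the table. In GENCODE M21 (GRCm38), 51 of them lie on chromosome 17 between positions 33915899 and 37483552. The other 5 are B2m on chromosome 2, Nlrc5 and Psmb10 on chromosome 8, Ciita on chromosome 16 and Cd74 on chromosome 18, and 0 lie on chromosome 13. Of the 56 genes, 34 passed the filter on low counts and were tested. The 22 untested genes reached at most 1.00 CPM (counts scaled to the TMM-adjusted library size) in any library, and 8 of them had 0 counts in all 12 libraries. They comprise Ciita, H2-Ob, H2-DMb2, H2-Eb2, H2-Q1, H2-Q2, most H2-M genes and the pseudogenes H2-Ea-ps, H2-K2, H2-Pa, H2-Pb, H2-Q3 and H2-M10.5-ps1. The genes were chosen by name after an earlier analysis of the same table had shown differences in H2-Eb1 and Ubd, so both are described below with their values and without a test.

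RNA was sequenced from 4 groups of cultured embryonic stem cells with 3 libraries each, to ask how much of the difference between a pair of inbred strains follows a segment of chromosome 13. B6 cells are C57BL/6J and D2 cells are DBA/2J. B6-13D2 cells, of strain B6.D2-(rs30079041-rs51756099)/Bakr, carry the D2 segment on the B6 background. D2-13B6 cells carry the B6 segment on the D2 background and are named D2.B6-(rs29224292-rs13469455)/Bakr in the sample labels, while the series design text gives rs51756099 as the end of that segment. All groups grew in serum medium with LIF, the MEK inhibitor PD0325901 and the GSK3 inhibitor CHIR99021. Per the labels' protocol the 3 libraries of a group are separate cultures of a single line, while every title calls them technical replicates, so p-values and SDs (n = 3) measure the spread between these libraries, which may be technical, and strain and line cannot be told apart. By its title B6 replicate 3 comes from another line than B6 replicates 1 and 2, and for D2 the line in the titles is not the one in the line field. The columns of both congenic groups carry a prefix that the parental columns lack, so whatever that prefix records and the congenic state cannot be told apart.

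In the class I route, a polymorphic heavy chain (in mice H2-K, H2-D and H2-L, with the less polymorphic Q, T and M molecules) pairs with β2-microglobulin, the product of B2m, and shows peptides from the cytosol to CD8 T cells. The peptides are cut by the immunoproteasome subunits Psmb8, Psmb9 and Psmb10, carried into the endoplasmic reticulum by Tap1 and Tap2, and loaded with the help of tapasin (Tapbp), and Nlrc5 is the transactivator of these genes. In the class II route, the α and β chains of H2-A and H2-E pair under the invariant chain Cd74, H2-DM exchanges peptides, H2-O restrains H2-DM and Ciita is the master transactivator. C57BL/6 carries the b haplotype of the complex and DBA/2 the d haplotype, which differ in sequence and in the set of expressed genes, and strains of the b haplotype make no H2-E α chain. Embryonic stem cells are known for low class I levels, and class II is mainly a property of professional antigen presenting cells.

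The promoters below belong to the 5 genes on which the comparison of background and segment turns, that is B2m and H2-D1 for class I, H2-Eb1 and H2-Aa for class II, and Ubd. Each is the 250 bases before the RefSeq start on the coding strand (GRCm38.p6), and capitals mark matches to the motifs described after the sequences.
B2m, chr2:122147437-122147686, plus strand: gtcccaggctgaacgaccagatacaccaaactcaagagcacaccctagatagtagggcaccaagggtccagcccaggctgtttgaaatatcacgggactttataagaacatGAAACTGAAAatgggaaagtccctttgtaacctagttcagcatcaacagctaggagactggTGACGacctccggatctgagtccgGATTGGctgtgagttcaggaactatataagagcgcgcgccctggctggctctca
H2-D1, chr17:35262844-35263093, plus strand: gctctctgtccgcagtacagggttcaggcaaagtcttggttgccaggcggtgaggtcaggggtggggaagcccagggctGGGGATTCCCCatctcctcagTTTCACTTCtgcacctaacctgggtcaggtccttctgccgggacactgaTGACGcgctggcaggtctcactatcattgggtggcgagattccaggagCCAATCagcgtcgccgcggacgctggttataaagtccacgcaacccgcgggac
H2-Eb1, chr17:34305617-34305866, plus strand: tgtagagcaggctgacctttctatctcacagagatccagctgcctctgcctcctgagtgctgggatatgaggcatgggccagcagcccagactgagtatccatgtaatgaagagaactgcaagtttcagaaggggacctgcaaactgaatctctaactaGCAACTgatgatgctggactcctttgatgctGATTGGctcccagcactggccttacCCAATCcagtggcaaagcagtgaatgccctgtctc
H2-Aa, chr17:34287824-34288073, minus strand: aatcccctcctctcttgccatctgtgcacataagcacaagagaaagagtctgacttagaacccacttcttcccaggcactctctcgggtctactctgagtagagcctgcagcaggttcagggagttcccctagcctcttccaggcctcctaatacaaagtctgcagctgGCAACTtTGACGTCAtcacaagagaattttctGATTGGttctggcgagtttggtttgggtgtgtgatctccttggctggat
Ubd, chr17:37193642-37193891, plus strand: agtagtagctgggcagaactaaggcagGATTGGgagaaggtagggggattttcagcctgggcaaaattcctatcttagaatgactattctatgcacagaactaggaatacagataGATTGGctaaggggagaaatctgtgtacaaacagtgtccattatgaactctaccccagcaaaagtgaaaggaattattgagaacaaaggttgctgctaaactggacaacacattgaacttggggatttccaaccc

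These sequences are those of the reference strain C57BL/6J, and the DBA/2J alleles were not analysed here. Of the 56 genes, 39 had a promoter in the RefSeq table, and of the tested genes 25 did. Motifs were searched on both strands, and their letters were chosen after the sequences had been seen. The Y box core GATTGG, the site of the factor NF-Y in class I and class II promoters, was in 18 of the 25, beside 14.6% of all 32851 promoters of this length. The half-site TGACG, part of the X2 box and of cyclic AMP response elements, was in 10 of the 25, beside 17.8% of all. The X1 core GCAACT was in H2-Aa, H2-Eb1, Psmb9 and Tap1, beside 9.01% of all, and the last 2 share 1 promoter. An interferon-stimulated response element, spelled GAAA, then NN, then GAAA, was in B2m, H2-T22 and H2-T23, beside 2.98% of all, and the shorter form GAANTGAAA was in 7 of the 25, all class I heavy chains, beside 1.5% of all. The κB palindrome of the class I enhancer A, the capitals in H2-D1 that begin with GGGGATT, was in H2-D1, H2-K1 and H2-Q6, beside 0.0304% of all. Among the 5 promoters shown, matches overlapped in H2-Aa, where TGACG and its reverse complement CGTCA share bases. A match describes the letters in this window and shows no binding.

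Libraries held 22184196 to 36411799 estimated counts. The 8 embryonic stem cell markers examined, Pou5f1 among them, summed to 4289 to 4657 CPM in B6, 4907 to 5231 in B6-13D2, 3068 to 3150 in D2 and 3856 to 3923 in D2-13B6, so that D2 was lowest and B6-13D2 highest, and 7 of 8 were called lower in D2 against B6, beside 30.3% of all genes. The 5 primitive endoderm markers summed to 9.65 to 11.8 CPM in B6, 6.24 to 6.92 in B6-13D2, 11.8 to 13.7 in D2 and 14.5 to 15.1 in D2-13B6. The 9 fibroblast markers examined, Col1a1 and Col3a1 among them, summed to 10493 to 11314 CPM in B6, 3404 to 3488 in B6-13D2, 15752 to 18702 in D2 and 8548 to 8870 in D2-13B6, with none at 0. The 9 markers of professional antigen presenting and other immune cells summed to 10.9 to 13.5 CPM in B6, 15.0 to 16.2 in B6-13D2, 19.3 to 22.4 in D2 and 35.4 to 37.2 in D2-13B6, also with none at 0. In such bulk samples, fewer cells of a type and less RNA per cell cannot be told apart. MHC genes are near-identical to each other in places, and 18 of the 34 tested genes carried counts divided between genes, among them H2-K1, H2-D1, H2-T22, H2-T23, H2-Bl, all Q genes, H2-DMb1, Tap1, Tap2, Tapbp and Psmb9. Whole counts were found for 16, among them B2m, Nlrc5, Psmb8, Psmb10, H2-Eb1, H2-Ab1, H2-Aa, H2-DMa, H2-Oa, H2-T3, Cd74 and Ubd.

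In D2 against B6, most called genes of the class I route were higher in D2, among them H2-Q6 by 1.36, H2-T10 by 1.09, Psmb8 by 1.01, Nlrc5 by 0.93, H2-D1 by 0.90 and B2m by 0.78 on the log2 scale. Cd74, H2-Q10, H2-M5, H2-M6-ps and Psmb10 were called lower, the last by a log2 fold change of -0.37 (adjusted p = 0.0103) that was not called with DESeq2 (adjusted p = 0.0942), over alternatives from 0.00385 to 0.0942. The count of lower calls also holds Ubd and H2-Bl, which passed the filter on low counts through the groups of B6 background and are described below without a test of that difference. Of the 34 tested genes, 25 (73.5%) passed the test, 18 higher and 7 lower in D2, beside 60.0% of all 17148 tested genes (29.8% higher and 30.3% lower). All adjusted p-values come from edgeR's quasi-likelihood test with Benjamini-Hochberg adjustment over those 17148 genes, and a gene is called here when its adjusted p is under 0.05. The median log2 fold change of the 34 was 0.44, beside 0.01 over all genes. Between B6-13D2 and B6, 24 (70.6%) were called, 11 higher and 13 lower in B6-13D2, beside 58.3% of all genes (25.4% higher and 32.9% lower), with a median of 0.01 beside -0.04. Between D2-13B6 and D2, 20 (58.8%) were called, 7 higher and 13 lower in D2-13B6, beside 57.3% of all genes (27.6% higher and 29.7% lower), with a median of -0.16 beside 0.00. Without B6 replicate 3, the library of another line by its title, the counts for these comparisons were 25, 23 and 22. In D2-13B6 against B6-13D2, which differ in background and in segment, 27 (79.4%) were called, 17 higher and 10 lower, beside 70.2% of all genes (38.4% higher and 31.8% lower). The counts over the 34 genes, here and for the effects below, include H2-Eb1 and Ubd, known beforehand, and H2-Aa, H2-Oa and H2-Bl, which passed the filter on low counts through the groups where they are high. H2-T-ps and H2-Q5, also among the 34, had few counts and were highest in D2-13B6, a group that helped them through that filter. Set beside the shares of all genes, the counts over the 34 genes are therefore a description and support nothing. Comparisons of D2 with B6 and of each congenic line with its background strain share their control libraries, so their values are given side by side.

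The 4 groups also allow the background effect (D2 minus B6 background, averaged over both segment alleles), the segment effect (D2 minus B6 allele of the chromosome 13 segment, averaged over both backgrounds) and the difference of congenic and parental lines, the mean of both congenic-minus-parental differences, which is tested by the same contrast as the interaction of background and segment. The background effect was called in 30 of 34 genes (88.2%), 20 higher and 10 lower on the D2 background, beside 73.5% of all genes (38.7% higher and 34.7% lower). The segment effect was called in 18 of 34 (52.9%), 8 higher and 10 lower with the D2 allele, beside 43.9% of all genes (16.5% higher and 27.3% lower). Over all genes, 37.7% of the segment calls were higher with TMM and 47.7% with RLE size factors. For B6-13D2 against B6 these shares were 43.5% and 52.0%. For the 34 genes, RLE factors gave 9 higher and 10 lower segment calls, and 12 higher and 12 lower calls in B6-13D2 against B6. The difference of congenic and parental lines was called in 20 of 34 (58.8%), 9 higher and 11 lower in the congenic lines, beside 64.5% of all genes (31.1% higher and 33.4% lower).

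When a called gene also had to differ by 1 or more on the log2 scale, 9 genes passed for D2 against B6 beside 11.3% of all genes, 11 for B6-13D2 against B6 beside 14.5%, 3 for D2-13B6 against D2 beside 8.96% and 17 for D2-13B6 against B6-13D2 beside 22.1%. The background effect held 12 by that rule, beside 14.9% of all genes, and Ubd, H2-Bl, H2-Oa, H2-Aa and H2-T-ps are among the 12. The segment effect held 3, beside 2.36% of all genes (0.962% higher), namely the class II chains H2-Eb1, H2-Aa and H2-Ab1. H2-Eb1 was known beforehand and H2-Aa passed the filter through the groups where it is high, so this count supports nothing and H2-Ab1 alone is tested below. The difference of congenic and parental lines held 3, B2m, H2-Q10 and H2-Bl, beside 10.1% of all genes. The background effect was the largest of the 3 effects in 22 of 34 genes, 64.7% beside 49.7% of all tested genes, again with Ubd, H2-Bl, H2-Oa, H2-Aa and H2-T-ps among them. The segment effect was the largest in 7, H2-Eb1 and H2-Q5 included, 20.6% beside 12.9% of all, and the congenic difference in 5, 14.7% beside 37.4% of all.

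**Figure D1:**
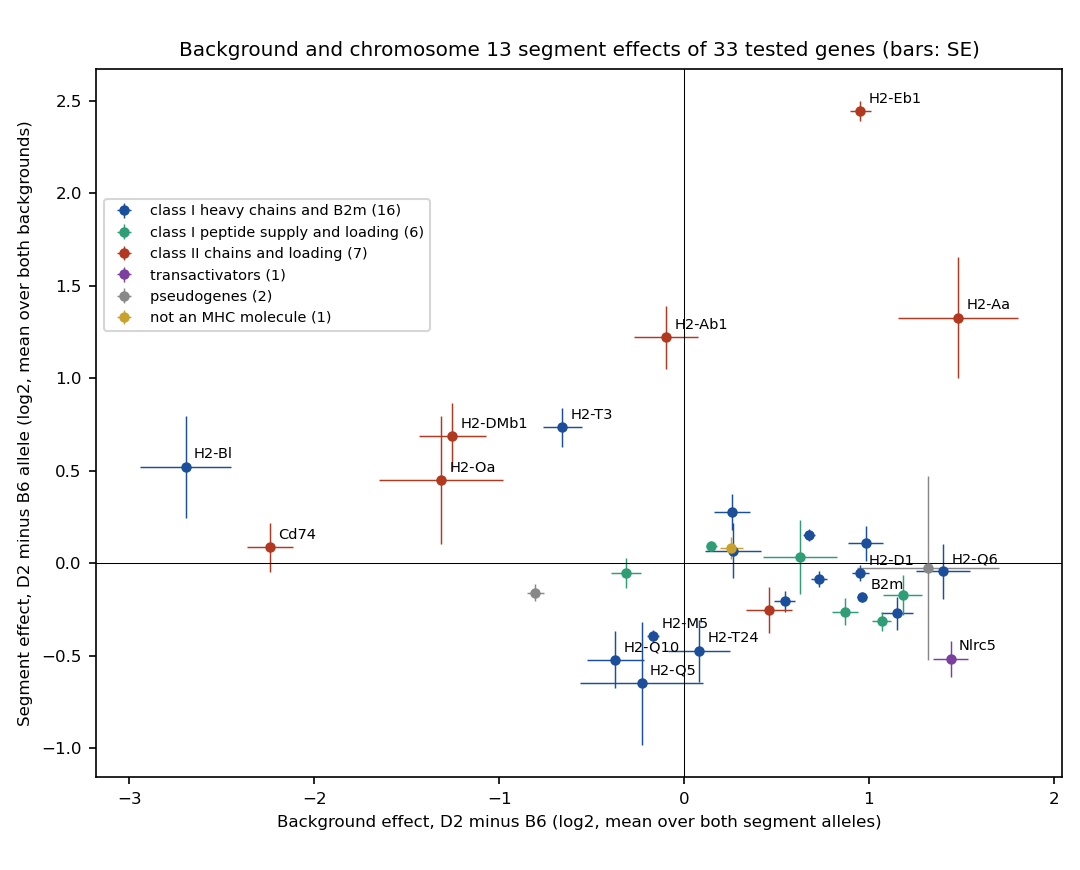
Background effect (x axis, log2) against segment effect (y axis, log2) of 33 tested genes, coloured by role, with SE as bars; Ubd, at or near 0 on the D2 background, is left out. H2-Eb1 stands highest with a segment effect of 2.44, Cd74 lies far left at -2.24, and B2m, H2-D1 and Nlrc5 lie right at 0.97, 0.95 and 1.44.

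Of the 16 tested class I chains with B2m, B2m, H2-D1, H2-K1, H2-T22 and H2-T23 were highest in D2 and lowest in B6-13D2, and the others had other orders of groups. B2m, the light chain shared by all class I molecules, stood at 339, 355 and 345 CPM in the B6 libraries and at 601, 597 and 588 in D2. It stood at 114, 128 and 123 CPM in B6-13D2 and at 269, 270 and 270 in D2-13B6. No groups overlapped, and both congenic lines lay below the parental strain of their background. The log2 fold change of B2m was 0.78 (SE 0.038, edgeR adjusted p = 1.1e-11) in D2 against B6, -1.51 (SE 0.039, adjusted p = 1.47e-15) in B6-13D2 against B6 and -1.14 (SE 0.038, adjusted p = 1.23e-13) in D2-13B6 against D2. Its segment effect was small, -0.18 (SE 0.027, adjusted p = 2.88e-05), since the same congenic direction on both backgrounds cancels in it, and its congenic difference was -1.33 (SE 0.027, adjusted p = 4.21e-17).

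The classical heavy chains followed in part. H2-D1 stood at 112, 105 and 120 CPM in B6, 58.8, 61.7 and 56.1 in B6-13D2, 227, 216 and 185 in D2 and 122, 119 and 114 in D2-13B6. The D2 libraries were all above and the B6-13D2 libraries all below the rest, while B6 and D2-13B6 overlapped. H2-D1 rose by 0.90 on the log2 scale in D2 against B6 (SE 0.063, adjusted p = 1.36e-09) and had a fold change of -0.93 in B6-13D2 against B6 (SE 0.067, adjusted p = 1.37e-09) and -0.82 in D2-13B6 against D2 (SE 0.061, adjusted p = 2.93e-09). Its segment effect was -0.05 (SE 0.045, adjusted p = 0.366). H2-K1 stood at 46.7, 44.5 and 50.0 CPM in B6, 38.6, 40.4 and 38.6 in B6-13D2, 87.3, 82.1 and 81.8 in D2 and 55.7, 55.9 and 57.3 in D2-13B6. Its groups did not overlap, and unlike B2m it stayed above B6 in D2-13B6. The log2 fold change of H2-K1 was 0.83 in D2 against B6 (SE 0.045, adjusted p = 5.34e-11), -0.26 in B6-13D2 against B6 (SE 0.048, adjusted p = 1.25e-04) and -0.57 in D2-13B6 against D2 (SE 0.043, adjusted p = 3.23e-09), with a segment effect of 0.15 (SE 0.032, adjusted p = 8.25e-04). Per kilobase of exon, B2m held 403 CPM in B6 beside 43.5 for H2-D1 and 16.0 for H2-K1.

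**Figure D2:**
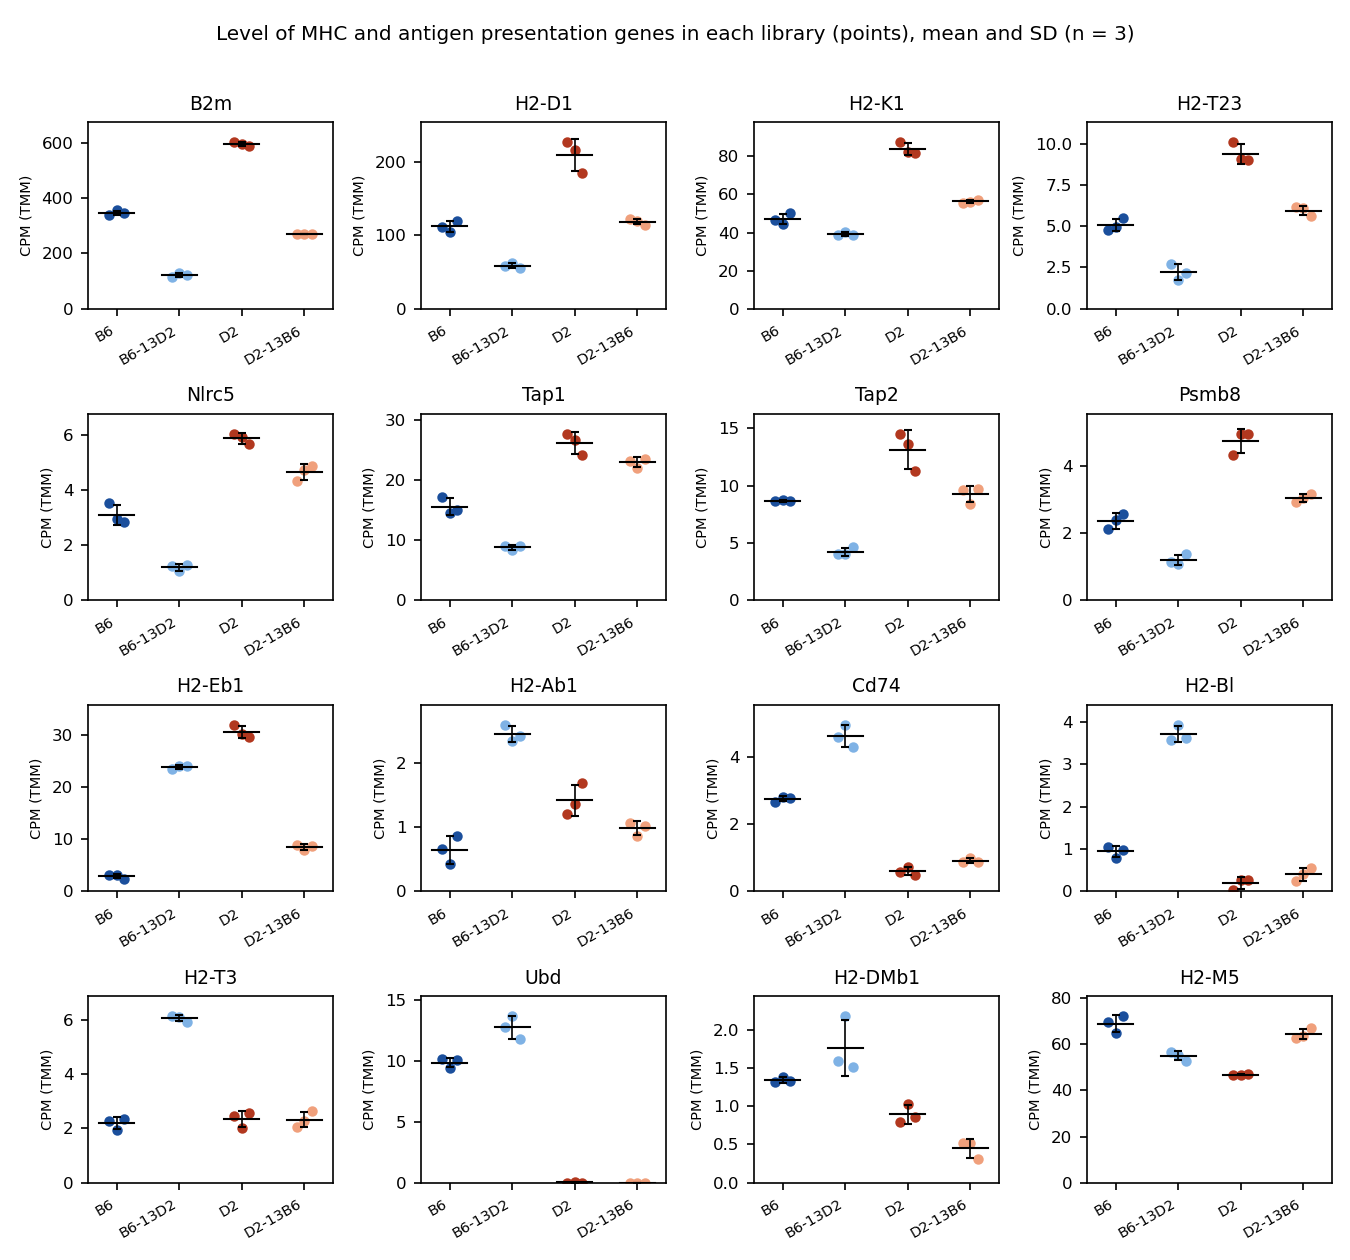
Level (CPM after TMM scaling) of 16 genes in each library (points), with the mean (line) and SD (bars) of 3 libraries for B6, B6-13D2, D2 and D2-13B6. B2m, H2-D1, H2-T23, Nlrc5, Tap1, Tap2 and Psmb8 are highest in D2 and lowest in B6-13D2, H2-Eb1 is high in D2 and B6-13D2, and Ubd and Cd74 are low in both groups of D2 background.

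Among the less polymorphic class I genes, H2-T23, which encodes Qa-1, the ligand of the NKG2A receptor, stood at 4.79, 4.95 and 5.49 CPM in B6, 2.73, 1.74 and 2.19 in B6-13D2, 10.1, 9.04 and 9.01 in D2 and 6.14, 6.09 and 5.61 in D2-13B6. No groups overlapped, with the same extremes as for B2m. H2-T23 rose by 0.88 in D2 against B6 (log2, SE 0.12, adjusted p = 4.18e-06), and its fold change was -1.19 in B6-13D2 against B6 (SE 0.14, adjusted p = 9.73e-07) and -0.65 in D2-13B6 against D2 (SE 0.11, adjusted p = 6e-05). Its segment effect of -0.27 (adjusted p = 0.0211) was not called without B6 replicate 3 (adjusted p = 0.0556), without B6-13D2 replicate 2 (adjusted p = 0.0891) or with DESeq2 (adjusted p = 0.0870), over alternatives that ranged from 0.00378 to 0.0891. H2-T22, a ligand of γδ T cells, had group means of 19.5 ± 0.937 CPM in B6, 11.6 ± 0.554 in B6-13D2, 30.5 ± 1.72 in D2 and 20.3 ± 0.292 in D2-13B6 (SD, n = 3). It rose by 0.64 in D2 against B6 and had a fold change of -0.75 and -0.58 in the congenic lines against their background strains (log2, all called).

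Other class I heavy chains moved differently. H2-T3, which encodes the thymus leukaemia antigen, stood at 2.28, 1.93 and 2.36 CPM in B6, 6.13, 6.11 and 5.93 in B6-13D2, 2.46, 2.00 and 2.55 in D2 and 2.06, 2.27 and 2.62 in D2-13B6. B6-13D2 alone stood apart, and the other groups overlapped. Its log2 fold change was 1.47 in B6-13D2 against B6 (SE 0.14, adjusted p = 8.9e-08), beside 0.08 in D2 against B6 (adjusted p = 0.753) and -0.00 in D2-13B6 against D2 (adjusted p = 0.993). H2-Q10, which encodes a secreted class I molecule, stood at 1.23, 0.881 and 1.24 CPM in B6, 2.01, 2.05 and 1.66 in B6-13D2, 0.541, 0.584 and 0.683 in D2 and 1.92, 2.32 and 2.11 in D2-13B6. Both congenic groups were above both parental groups and overlapped each other. It rose by 0.77 in B6-13D2 against B6 (log2, SE 0.21, adjusted p = 0.00434) and by 1.81 in D2-13B6 against D2 (SE 0.22, adjusted p = 1.58e-06).

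H2-T10, a near relative of H2-T22, stood at 1.63, 2.01 and 2.44 CPM in B6, 2.87, 3.32 and 3.21 in B6-13D2, 4.46, 4.25 and 4.28 in D2 and 5.84, 5.76 and 5.65 in D2-13B6. Each congenic line lay above its background strain here, without overlap, by 0.63 on the B6 background (log2, SE 0.15, adjusted p = 0.0014) and by 0.41 on the D2 background (SE 0.12, adjusted p = 0.00679), while H2-T22 lay below in both. The counts of both genes are divided between near-identical genes. H2-Q6, a Qa-2 gene, stood at 1.76, 1.39 and 1.33 CPM in B6, 0.969, 1.95 and 1.74 in B6-13D2, 3.62, 4.09 and 3.69 in D2 and 4.44, 4.65 and 3.54 in D2-13B6. The groups of one background overlapped and the backgrounds did not, with a background effect of 1.40 (log2, SE 0.14, adjusted p = 8.99e-08) and a segment effect of -0.04 (SE 0.15, adjusted p = 0.838). H2-Q4 and H2-Q7 had called background effects of 0.54 and 0.26 in the same direction. Unlike H2-Q6, they also had called segment effects, of -0.21 and 0.28.

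H2-Bl, a class I gene of the T region annotated as a polymorphic pseudogene, was higher on the B6 background, opposite to the classical chains. Its CPM was 1.05, 0.797 and 0.986 in B6, 3.57, 3.93 and 3.62 in B6-13D2, 0.0416, 0.278 and 0.273 in D2 and 0.247, 0.415 and 0.544 in D2-13B6. B6-13D2 was highest and B6 second, and both groups of D2 background lay below and overlapped each other. As it passed the filter on low counts through the groups of B6 background, no test against the D2 background is given. Within the B6 background B6-13D2 was higher by 1.97 (log2, SE 0.27, adjusted p = 5.37e-06).

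H2-M5, a class I gene of the M region with a comparatively high level, stood at 69.5, 65.1 and 72.2 CPM in B6, 56.6, 55.4 and 52.8 in B6-13D2, 46.7, 46.6 and 47.1 in D2 and 62.5, 63.8 and 67.0 in D2-13B6. It was lowest in D2, and only B6 and D2-13B6, which share the B6 segment, overlapped. Its segment effect of -0.39 (log2, SE 0.032, adjusted p = 2.59e-08) was larger than its background effect of -0.17 (SE 0.032, adjusted p = 1.42e-04). The unprocessed pseudogene H2-M6-ps next to it had a background effect of -0.80 (SE 0.046, adjusted p = 2.99e-11), with 15.6 to 17.1 CPM in B6 and 15.7 to 16.4 in B6-13D2 beside 8.25 to 8.65 in D2 and 9.90 to 10.7 in D2-13B6. H2-M3, which presents formylated peptides, had group means between 1.35 and 1.74 CPM and no call in any comparison made. H2-T24 stood at 1.16 to 1.81 CPM in the group means. It had a called fold change of -0.64 in B6-13D2 against B6 (log2, SE 0.24, adjusted p = 0.0321) and a called segment effect of -0.47 (SE 0.17, adjusted p = 0.0296). H2-Q5 had group means of 0.235 to 0.483 CPM and no call.

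Over the class I chains with B2m, 28 genes were found and 16 tested. Of these, 9 were higher and 3 lower in D2 against B6, 4 higher and 7 lower in B6-13D2 against B6, and 4 higher and 5 lower in D2-13B6 against D2. These are 75.0%, 68.8% and 56.3% of the 16, beside 60.0%, 58.3% and 57.3% of all genes, and the last is at the share of all genes. The median log2 fold changes were 0.44, -0.18 and 0.09, beside 0.01, -0.04 and 0.00 over all tested genes. No class I chain had a segment effect of at least 1.

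The transactivator Nlrc5 and the supply genes Tap1, Tap2 and Psmb8 ran from D2 over D2-13B6 and B6 to B6-13D2 in their group means, while Psmb9, Psmb10 and Tapbp had other orders. Nlrc5 stood at 3.51, 2.94 and 2.83 CPM in B6, 1.25, 1.04 and 1.28 in B6-13D2, 6.04, 5.92 and 5.64 in D2 and 4.30, 4.73 and 4.87 in D2-13B6. No groups overlapped, and B6-13D2 was lowest. The log2 fold change of Nlrc5 was 0.93 in D2 against B6 (SE 0.13, adjusted p = 5.6e-06), -1.38 in B6-13D2 against B6 (SE 0.16, adjusted p = 5.33e-07) and -0.34 in D2-13B6 against D2 (SE 0.11, adjusted p = 0.0163). The last was not called without D2 replicate 1 (adjusted p = 0.0528), without D2-13B6 replicate 1 (adjusted p = 0.0713), with DESeq2 (adjusted p = 0.0737) or without a filter (adjusted p = 0.0604), over alternatives from 0.00970 to 0.0737. Its background effect was 1.44 (SE 0.095, adjusted p = 2e-10) and its segment effect -0.52 (SE 0.097, adjusted p = 3.27e-04).

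Tap1, one of the 2 chains of the peptide transporter, stood at 17.1, 14.6 and 14.9 CPM in B6, 8.97, 8.32 and 9.02 in B6-13D2, 27.7, 26.6 and 24.2 in D2 and 23.2, 22 and 23.5 in D2-13B6. All groups stood apart, in the order D2, D2-13B6, B6 and B6-13D2. Tap1 rose by 0.76 in D2 against B6 (log2, SE 0.07, adjusted p = 5.39e-08), had a fold change of -0.83 in B6-13D2 against B6 (SE 0.08, adjusted p = 7.56e-08) and one of -0.20 in D2-13B6 against D2 (adjusted p = 0.0150). The last was not called without D2 replicate 1 (adjusted p = 0.0976), D2 replicate 2 (adjusted p = 0.0530) or D2-13B6 replicate 2 (adjusted p = 0.0673), or with DESeq2 (adjusted p = 0.0527), over alternatives from 0.00327 to 0.0976. Tap2, the other chain, stood at 8.61, 8.73 and 8.62 CPM in B6, 3.98, 4.03 and 4.60 in B6-13D2, 14.5, 13.7 and 11.2 in D2 and 9.57, 8.41 and 9.70 in D2-13B6. D2 was highest and B6-13D2 lowest without overlap, while B6 and D2-13B6 overlapped. Its log2 fold changes in the same 3 comparisons were 0.61, -1.04 and -0.52 (SE 0.096, 0.11 and 0.091), all called.

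Of the immunoproteasome subunits, Psmb8 followed this order. It stood at 2.11, 2.39 and 2.57 CPM in B6, 1.14, 1.07 and 1.36 in B6-13D2, 4.33, 4.95 and 4.96 in D2 and 2.93, 3.04 and 3.16 in D2-13B6, without overlap. Its log2 fold change was 1.01 in D2 against B6 (SE 0.14, adjusted p = 7.68e-06), -0.99 in B6-13D2 against B6 (SE 0.17, adjusted p = 6.26e-05) and -0.64 in D2-13B6 against D2 (SE 0.13, adjusted p = 4.02e-04). Psmb9 and Psmb10 did not. Psmb9 stood at 1.10, 0.588 and 1.03 CPM in B6, 1.14, 1.58 and 0.642 in B6-13D2, 1.33, 1.42 and 1.55 in D2 and 1.73, 1.83 and 1.56 in D2-13B6, and its background effect of 0.63 (SE 0.20, adjusted p = 0.00919) was called. Psmb9 and Tap1 overlap head to head, and whether counting used the strand is not given in the sources used here. Psmb10 stood at 5.36, 5.37 and 5.75 CPM in B6, 4.57, 4.93 and 4.45 in B6-13D2, 4.83, 4.23 and 3.69 in D2 and 3.84, 3.82 and 4.01 in D2-13B6. It was highest in B6 and lower on the D2 background, by a background effect of -0.31 (SE 0.080, adjusted p = 0.00186). Tapbp stood at 81.2, 79.7 and 80.0 CPM in B6, 71.6, 72.0 and 67.1 in B6-13D2, 94.5, 98.6 and 91.0 in D2 and 74.1, 70.5 and 74.4 in D2-13B6. The congenic groups overlapped each other and lay below both parental groups, with log2 fold changes of -0.19 (SE 0.042, adjusted p = 6.91e-04) and -0.38 (SE 0.040, adjusted p = 2.87e-07) against their background strains.

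A set of 11 genes had D2 as the highest and B6-13D2 as the lowest group mean, namely B2m, H2-D1, H2-K1, H2-T22, H2-T23, Nlrc5, Tap1, Tap2, Tapbp, Psmb8 and H2-DMa. That is 32.4% of the tested genes, beside 23.8% of all tested genes. The full order of the summed fibroblast markers, D2, B6, D2-13B6 and B6-13D2, was held by 3 of the 34. These were B2m, H2-DMa and Tapbp, 8.82% beside 14.8% of all tested genes. The summed fibroblast markers had D2 highest and B6-13D2 lowest too, and of the 9 only Dcn, a small leucine-rich proteoglycan of the matrix, had its highest mean elsewhere (2.94 CPM in D2-13B6 beside 2.81 in D2). All 9 were called higher in D2 against B6 (beside 29.8% of all genes) and lower in B6-13D2 against B6 (beside 32.9%), and 8 of 9 were called lower in D2-13B6 against D2 (beside 29.7%). Their summed level spanned 5.04-fold between the highest and lowest group mean, and B2m spanned 4.89-fold. Per 1000 CPM of these markers, a ratio formed after the data had been seen, B2m stood at 32.2 CPM in B6, 35.2 in B6-13D2, 34.4 in D2 and 30.9 in D2-13B6, a span of 1.14-fold. By the same ratio the span fell from 3.55-fold to 1.64-fold for H2-D1, from 4.22-fold to 1.44-fold for H2-T23, from 4.93-fold to 1.86-fold for Nlrc5 and from 3.98-fold to 1.59-fold for Psmb8. Over the 33 tested genes with a ratio, the span was smaller as this ratio in 9 and larger in 24, and the 9 all belong to the 11 genes above. It was 3.72-fold in place of 1.35-fold for Tapbp, 2.60-fold in place of 2.14-fold for H2-K1, 25.7-fold in place of 10.6-fold for H2-Eb1 and 38.7-fold in place of 7.68-fold for Cd74. As the marker sum is highest in D2 and lowest in B6-13D2, division by it tends to narrow genes of that order and widen others. The falls and this split are thus largely set by that order and support nothing. The stem cell markers had the reverse extremes, and the part of either marker level in the class I results was not tested.

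**Figure D3:**
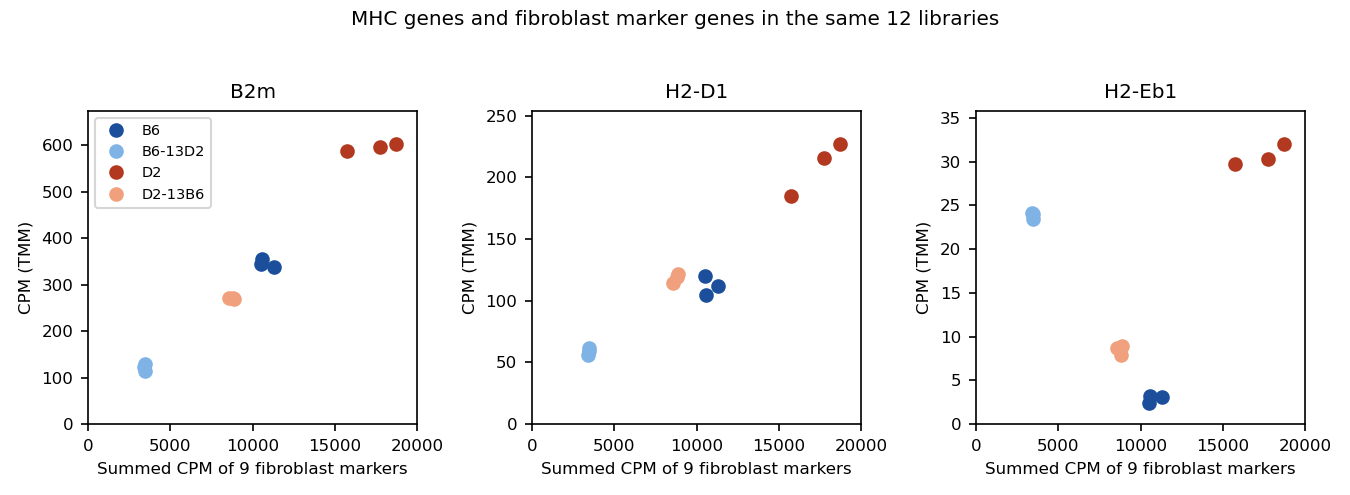
Level (CPM, y axis) of B2m, H2-D1 and H2-Eb1 against the summed CPM of 9 fibroblast markers (x axis) in the same 12 libraries, coloured by group. For B2m and H2-D1, B6-13D2 sits at the lower left, D2 at the upper right and B6 and D2-13B6 between, while H2-Eb1 is higher in B6-13D2 (23.5 to 24.1 CPM) than in B6 (2.44 to 3.19 CPM) at a lower marker level.

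H2-Eb1, H2-Ab1 and H2-Aa had higher group means with the D2 segment than with the B6 segment on each background. On the D2 background that difference was not called for H2-Ab1, H2-Aa is given without a test, and H2-Eb1 was known beforehand. H2-Eb1, the β chain of H2-E, stood at 3.07, 3.19 and 2.44 CPM in B6, 23.5, 24 and 24.1 in B6-13D2, 32.0, 30.3 and 29.7 in D2 and 8.94, 7.89 and 8.68 in D2-13B6. No groups overlapped, and both groups with the D2 allele of the segment lay above both with the B6 allele. The group means were 2.90 ± 0.402 CPM in B6, 23.9 ± 0.323 in B6-13D2, 30.7 ± 1.18 in D2 and 8.5 ± 0.546 in D2-13B6 (SD, n = 3). The log2 difference was 3.40 for D2 minus B6, 3.04 for B6-13D2 minus B6 and -1.85 for D2-13B6 minus D2, so the level in B6-13D2 lay nearer to D2 than to B6, and that in D2-13B6 lay between. As H2-Eb1 was known from the earlier analysis, these values are a description.

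H2-Ab1, the β chain of H2-A, stood at 0.659, 0.420 and 0.857 CPM in B6, 2.60, 2.35 and 2.42 in B6-13D2, 1.21, 1.36 and 1.68 in D2 and 1.07, 0.858 and 1.02 in D2-13B6. B6-13D2 was highest and D2 second, without overlap with any group. H2-Ab1 rose by 1.13 in D2 against B6 (log2, SE 0.26, adjusted p = 0.00126) and by 1.92 in B6-13D2 against B6 (SE 0.25, adjusted p = 2.54e-06). Its fold change was -0.52 in D2-13B6 against D2 (SE 0.23, adjusted p = 0.0637), a comparison that was called without B6 replicate 2 (adjusted p = 0.0457), without B6 replicate 3 (adjusted p = 0.0491) and at a mean CPM of at least 1 (adjusted p = 0.0332), over alternatives from 0.0332 to 0.199. The segment effect was 1.22 (SE 0.17, adjusted p = 1.56e-05) and the background effect -0.10 (SE 0.17, adjusted p = 0.631).

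H2-Aa, the α chain of H2-A, was close to the floor, with 2, 1 and 3 counts in B6, 13, 8 and 6 in B6-13D2, 16, 20 and 15 in D2 and 10, 16 and 10 in D2-13B6. B6 lay below all others, D2 was highest in CPM, and the congenic groups overlapped. It passed the filter on low counts through the groups where it is high, so no test is given. Per kilobase of exon, H2-Eb1 reached 15.8 CPM in D2 beside 0.552 for H2-Ab1 and 0.167 for H2-Aa, and 12.3 CPM in B6-13D2 beside 0.955 and 0.0829. The β chain of H2-E was thus the most abundant class II chain in both groups. Its partner, annotated as H2-Ea-ps, had 0 counts in all 12 libraries, which allows up to 3 counts in each, and H2-Eb2 had 0 to 3 counts per library.

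The genes of class II loading differed among themselves. H2-DMa, a chain of the peptide exchanger, stood at 2.42, 2.31 and 2.32 CPM in B6, 1.11, 1.07 and 1.28 in B6-13D2, 3.08, 2.56 and 2.5 in D2 and 1.70, 2.19 and 1.77 in D2-13B6. B6-13D2 was lowest without overlap, with a log2 fold change of -1.02 against B6 (SE 0.19, adjusted p = 1.27e-04). In D2-13B6 against D2 it was -0.52 (SE 0.17, adjusted p = 0.0122), not called without D2 replicate 1 (adjusted p = 0.0666) or D2-13B6 replicate 1 (adjusted p = 0.0552), over alternatives from 0.00642 to 0.0666. H2-DMb1, the other chain, stood at 1.32, 1.39 and 1.33 CPM in B6, 1.59, 2.18 and 1.51 in B6-13D2, 0.791, 1.03 and 0.865 in D2 and 0.521, 0.526 and 0.306 in D2-13B6. No groups overlapped, and D2-13B6 was lowest, where the partner H2-DMa was not. The background effect of H2-DMb1 was -1.25 (SE 0.18, adjusted p = 6.64e-06) and its segment effect 0.69 (SE 0.18, adjusted p = 0.00555).

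H2-Oa, a chain of the inhibitor of H2-DM, had 4, 8 and 7 counts in B6, 20, 13 and 16 in B6-13D2, 2, 5 and 5 in D2 and 4, 8 and 5 in D2-13B6. B6-13D2 was above all others, and H2-Oa passed the filter on low counts through that group, so no test is given. Its partner H2-Ob had 1 count in all. Ciita, the master transactivator of class II, was not tested, with 4, 11 and 4 counts in B6, 1, 4 and 2 in B6-13D2, 5, 2 and 5 in D2 and 8, 8 and 7 in D2-13B6. Its lowest counts were in B6-13D2, where H2-Ab1 was highest. Of the 7 tested class II genes, 4 (57.1%, beside 43.9% of all genes) had a called segment effect, H2-Eb1, H2-Aa, H2-Ab1 and H2-DMb1. Since H2-Eb1 was known beforehand and H2-Aa passed the filter through its high groups, the count is a description.

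Cd74, the invariant chain, followed the background. It stood at 2.68, 2.81 and 2.79 CPM in B6, 4.60, 4.97 and 4.30 in B6-13D2, 0.583, 0.723 and 0.501 in D2 and 0.877, 0.996 and 0.885 in D2-13B6. No groups overlapped, and all libraries of B6 background were above all of D2 background, although Cd74 lies outside the complex on chromosome 18. Its background effect was -2.24 (log2, SE 0.12, adjusted p = 1.85e-11) and its segment effect 0.09 (SE 0.13, adjusted p = 0.635). Within the B6 background B6-13D2 was higher by 0.74 (SE 0.15, adjusted p = 2.76e-04). On the D2 background the fold change of D2-13B6 was 0.57 (adjusted p = 0.0394), not called without D2 replicate 1 (adjusted p = 0.0831), D2 replicate 3 (adjusted p = 0.130), D2-13B6 replicate 1 (adjusted p = 0.0506), D2-13B6 replicate 2 (adjusted p = 0.119) or D2-13B6 replicate 3 (adjusted p = 0.0520). It was also not called with DESeq2 (adjusted p = 0.111), without a filter (adjusted p = 0.0827), above a mean of 1 CPM (adjusted p = 0.0504) or with the compared libraries alone (adjusted p = 0.0875), so that 9 of 18 alternatives lost it, over alternatives from 0.0307 to 0.130. Of the immune cell markers, Csf1r, Adgre1, Itgam and Ptprc were called higher on the D2 background, by 1.62, 1.73, 1.42 and 1.73 (log2), opposite to Cd74, while Cd79a, close to the filter, had means of 0.899 CPM in B6, 1.20 in B6-13D2, 0.347 in D2 and 0.503 in D2-13B6. Their part in the class II results was not tested.

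Ubd, which encodes the interferon-inducible ubiquitin-like modifier FAT10 and lies in the distal part of the complex, was nearly a presence or absence difference. It had 230, 224 and 234 counts in B6 and 368, 407 and 313 in B6-13D2, but 0, 3 and 0 in D2 and 0, 0 and 0 in D2-13B6. Every library of B6 background stood at 9.40 to 13.7 CPM and every library of D2 background at 0.0834 CPM or below, whichever segment it carried. The ratio of B6 to D2 over summed counts was 269, with a 95% interval of 91.6 to 1306 that covers counting error only. B6-13D2 was at least 434-fold higher than D2-13B6, against a floor of 3 counts over the group. Ubd was known from the earlier analysis, so no test is given. Within the B6 background the levels of 9.40 to 10.1 CPM in B6 and 12.7, 13.7 and 11.8 in B6-13D2 did not overlap.

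**Figure D4:**
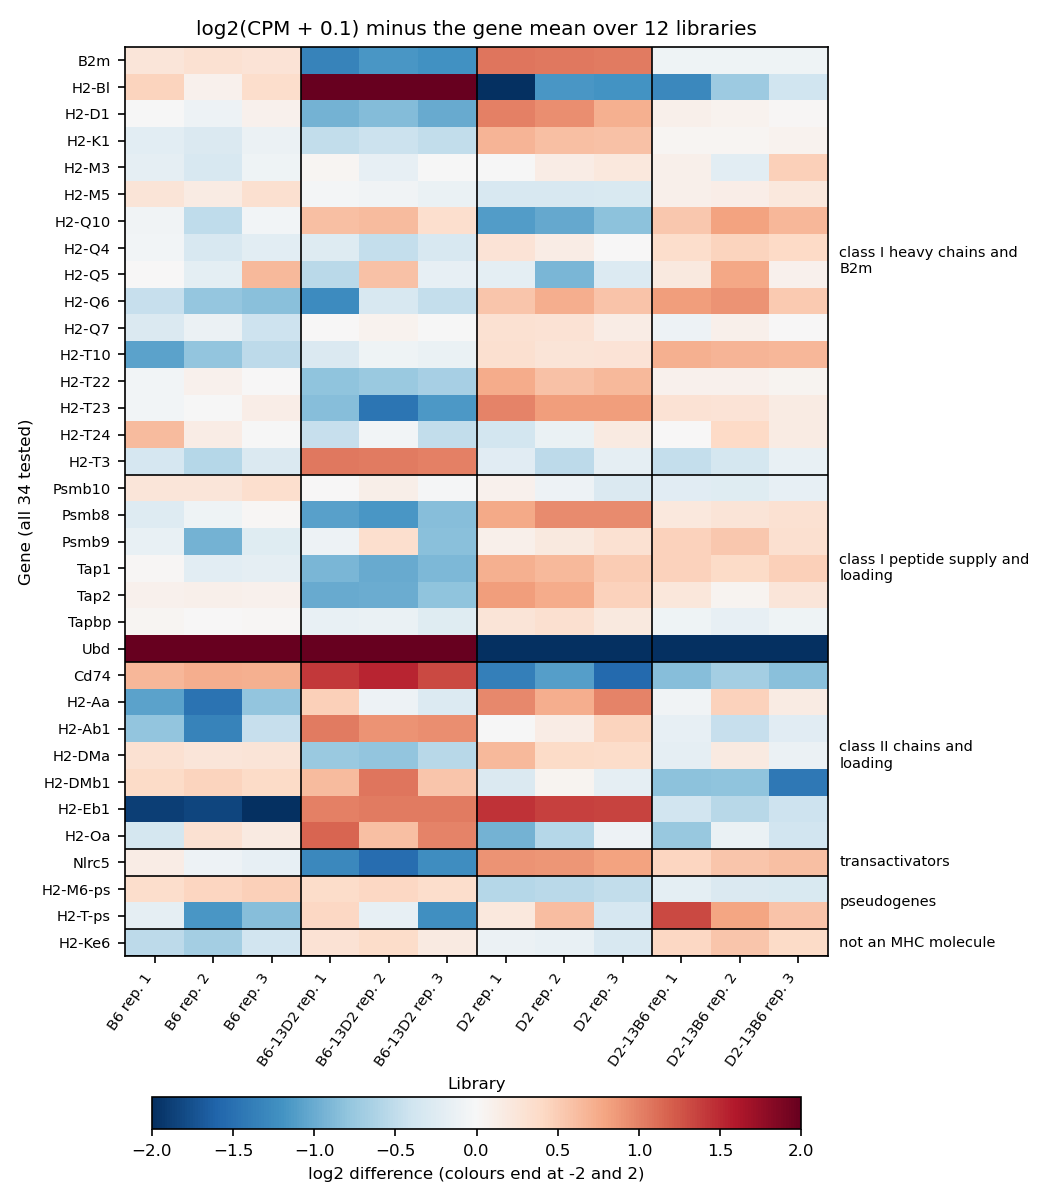
Difference of log2(CPM + 0.1) from the gene's mean over 12 libraries (colour, ending at -2 and 2) for all 34 tested genes (y axis, by role) in each library (x axis, by group). Ubd and Cd74 are above their mean in the 6 libraries of B6 background and below in the 6 of D2 background, and H2-Eb1 is above its mean in D2 and B6-13D2.

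H2-Ke6 carries the prefix but encodes Hsd17b8, a mitochondrial dehydrogenase and no MHC molecule. Its group means were 8.73 ± 0.920 CPM in B6, 15.3 ± 1.00 in B6-13D2, 11 ± 0.818 in D2 and 17.3 ± 1.08 in D2-13B6 (SD, n = 3), so both congenic lines were above both parental strains. The increase over the background strain was 0.81 on B6 (log2, SE 0.088, adjusted p = 3.03e-07) and 0.65 on D2 (SE 0.081, adjusted p = 1.85e-06). Among the other tested genes of chromosome 17 between the first and last gene of the set, 117 in number, 72 (61.5%, beside 60.0% of all genes) were called in D2 against B6, 19 higher and 53 lower in D2. The 34 MHC and antigen presentation genes split 18 to 7 in the other direction there. The median background effect was -0.17 for the neighbours, 0.36 for the 34 genes and 0.03 for all tested genes. The segment effect was called in 47 of the 117 neighbours (40.2%, beside 43.9% of all genes), 28 higher and 19 lower with the D2 allele.

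Upstream of these genes, 21 regulators of MHC transcription and interferon-γ signalling were all tested. In D2 against B6, 8 of them were higher and 9 lower, and in B6-13D2 against B6, 5 were higher and 9 lower, that is 81.0% and 66.7% called beside 60.0% and 58.3% of all genes. The median log2 fold changes were 0.00 and 0.04. Ifngr2, a chain of the interferon-γ receptor, had 24.4 ± 1.09 CPM in B6, 10.1 ± 0.0964 in B6-13D2, 35.8 ± 1.45 in D2 and 24.6 ± 1.64 in D2-13B6 (SD, n = 3), with a log2 fold change of -1.27 in B6-13D2 against B6 (SE 0.066, adjusted p = 1.68e-11). Irf2, an interferon regulatory factor, had a fold change of -1.05 there (SE 0.16, adjusted p = 1.41e-05), with 3.43 ± 0.375 CPM in B6 and 1.65 ± 0.128 in B6-13D2 (SD, n = 3). Ifngr1, the ligand-binding chain, and Ifngr2 were higher in D2-13B6 than in B6-13D2 by 1.11 and 1.29 (log2, both called). Both D2-13B6 and D2 were above B6-13D2 for the receptor genes, as for Nlrc5.

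Of 19 other genes of peptide supply and loading, all tested, 8 were higher and 4 lower in D2 against B6, and 6 higher and 10 lower in B6-13D2 against B6, that is 63.2% and 84.2% called beside 60.0% and 58.3% of all genes. Erap1, the aminopeptidase that trims class I peptides and the gene of this list named for its size of change that lies on chromosome 13, had 7.97 ± 0.216 CPM in B6, 3.24 ± 0.491 in B6-13D2, 12.9 ± 0.839 in D2 and 8.73 ± 0.594 in D2-13B6 (SD, n = 3). Its log2 fold change was -1.29 in B6-13D2 against B6 (SE 0.11, adjusted p = 1.53e-08) and its segment effect -0.37 (SE 0.071, adjusted p = 4.25e-04), the same extremes of groups as for B2m. Ctss, the cathepsin that degrades the invariant chain, had 5.85 ± 0.833 CPM in B6, 6.33 ± 0.999 in B6-13D2, 13.4 ± 0.209 in D2 and 19.0 ± 0.973 in D2-13B6 (SD, n = 3). Its background effect was 1.39 (SE 0.072, adjusted p = 6.81e-12), opposite in sign to that of its substrate Cd74.

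Of 12 other class I-like molecules in the table, 8 were tested, and 4 were higher and 1 lower in D2 against B6, that is 62.5% called beside 60.0% of all genes. Ulbp1 and Raet1e, ligands of the activating receptor NKG2D, had background effects of 1.75 (log2, SE 0.13, adjusted p = 7.67e-10) and 1.29 (SE 0.094, adjusted p = 7.28e-10), and Mr1, which presents vitamin metabolites, had one of 1.21 (SE 0.16, adjusted p = 1.72e-06). In B6-13D2 against B6, 3 were higher and 4 lower, that is 87.5% called beside 58.3% of all genes. Ulbp1 rose there by 0.86 (log2, SE 0.22, adjusted p = 0.00230), and Cd1d1, which presents lipids, by 0.71 (SE 0.15, adjusted p = 4.97e-04). Procr, the protein C receptor, had a fold change of -1.59 in B6-13D2 against B6 (SE 0.087, adjusted p = 3.03e-11), with 22.2 ± 0.162 CPM in B6 and 7.34 ± 0.585 in B6-13D2 (SD, n = 3). Mr1 had one of -1.09 in that comparison (SE 0.25, adjusted p = 0.00119), and Raet1d was also called lower there (adjusted p = 0.00862).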

How the data were processed

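Per the labels' protocol, mRNA of 12 embryonic stem cell cultures was sequenced as paired ends. GEO's molecule field says genomic DNA, against that protocol. The authors deposited expected counts (estimated counts) per Ensembl gene, made with EMASE per the name of the deposited table, a tool that divides reads among similar genes, so levels of near-identical MHC genes can shift into each other. The submitters' processing notes name Bowtie 1.0.0, edgeR 3.34.1 and mm10. Which strain's transcripts served as reference, and whether counting used the strand, is not given in the sources used here. Whole numbers (tolerance 1e-06) made up 88.1% of the table and 71.3% of the values of these genes.

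Symbols and positions came from GENCODE M21 (42462 of 43346 IDs found). Every column was mapped to a library by its name (0 were left out). After rounding, edgeR 4.0.16 (R 4.3.3) was run with its expression filter by group at a minimum count of 10, TMM scaling, a quasi-likelihood fit of 4 group means over 12 libraries (common dispersion 0.001834), Benjamini-Hochberg adjustment over 17148 genes and a threshold of 0.05. SE is the absolute log2 fold change over the square root of F. No library copied another of its group (chi-square over degrees of freedom 1.96 to 8.24 for every pair). The fit was tested on simulated data.

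Values per library are given for the classical chains, class II, transactivators, peptide supply and any other gene at a mean of 1 CPM or more that was called and moved by 1 or more on the log2 scale in a comparison. Genes of other lists are named by that fold rule, except Pou5f1 and Cd1d1. H2-M5, outside this rule, was added after its values were seen. The genes, lists and rules were chosen with earlier results of these data known. Alternatives were DESeq2 1.42.0, scaling by RLE factors, testing without a filter or above a mean of 1 CPM, a fold threshold, a block by replicate number, fits restricted to the libraries of a comparison, and omission of each library. Promoters came from RefSeq (GRCm38.p6).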

Additional observations from a re-analysis of the deposited data

Results flagged for a closer look

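A difference of congenic and parental lines (edgeR, log2) is tested by the same contrast as a segment effect that differs between backgrounds. The contrast does not tell them apart. A call in it was found in 17 of 23 named and tested genes (Ubd, at or near 0 on the D2 background, was left out). Several of these genes were named for a large called fold, so this count is not set against all genes. Over all 34 tested genes it was 20 (58.8%), beside 64.5% of all genes. The values below are the mean of the congenic-minus-parental differences on both backgrounds, and cannot be told apart from anything that all congenic libraries share. It was negative in 10 genes: -1.33 for B2m, -0.92 for H2-T23, -0.87 for H2-D1, -0.86 for Nlrc5, -0.82 for Psmb8, -0.78 for Tap2, -0.77 for H2-DMa, -0.51 for Tap1, -0.42 for H2-K1 and -0.28 for Tapbp. It was positive in 7: 1.45 for H2-Bl (which passed the filter on low counts through the B6 background), 1.29 for H2-Q10, 0.73 for H2-T3, 0.70 for H2-Ab1, 0.66 for Cd74, 0.59 for H2-Eb1 (known before) and 0.52 for H2-T10. All 9 fibroblast markers had a negative difference as well, with a median of -1.24, and their part was not tested.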

How the results depend on the processing

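Every count of called genes stayed within 1.5 times its value under the other tools, scalings, filters and sample sets tried (DESeq2, RLE factors, testing without a filter, testing above a mean of 1 CPM, the replicate block and, for comparisons of 2 groups, their own libraries alone). No named gene reversed its sign where the main or the alternative fit called it. Signs of values called in neither were not counted, and Ubd was left out. When calls also had to reach 1 on the log2 scale, the counts were 9 for D2 against B6, 11 for B6-13D2 against B6, 3 for D2-13B6 against D2, 12 for the background effect, 3 for the segment effect, 3 for congenic against parental lines and 17 for D2-13B6 against B6-13D2. Leaving out each library in turn gave 25 to 27, 22 to 25, 17 to 22, 29 to 32, 16 to 20, 19 to 23 and 24 to 30 called genes in the same order. Same-numbered libraries did not deviate together on average (mean r of -0.00741 over 18 pairs, across genes, which are not independent replicates). No pairing by number was seen, although a mean near 0 cannot exclude it. With the replicate block, 26, 24, 20, 29, 18, 20 and 24 genes were called in that order. Calls lost with the block were those of H2-Q10 (background effect, -0.37, adjusted p = 0.0567) and, for D2-13B6 against B6-13D2, of Psmb10 (-0.26, adjusted p = 0.0629), H2-T24 (0.56, adjusted p = 0.0583) and H2-Ke6 (0.18, adjusted p = 0.0569). The block is no exception there: 12 of 17 alternatives lost the first of these calls (adjusted p from 0.0176 to 0.151), and of 18 alternatives 9 lost that of Psmb10 (0.0208 to 0.140), 8 that of H2-T24 (0.0250 to 0.163) and 13 that of H2-Ke6 (0.0366 to 0.232). H2-T-ps gained a call in D2 against B6 with the block (log2 fold change 1.30). It has few counts and passed the filter on low counts with the help of D2-13B6, where it is highest. No test of H2-T-ps is therefore given, and its gained call supports nothing. Genes below about 1 CPM, such as H2-Aa, H2-Oa and Ciita, rest on few counts.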
